A study of Mus musculus with 18 samples.

Results

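DN3 thymocytes sorted from grafted mouse thymi were profiled by RNA sequencing in 9 of the 18 libraries of the series, 4 labelled turnover and 5 labelled autonomy, and these were compared. They were taken as the columns of the raw count table that carry the DN3 label. The other 9 libraries are of DP thymocytes, which carry both CD4 and CD8, and they serve here only as a scale for DP transcripts. Both groups come from wild-type thymi that had been transplanted for 28 days, per the labels' protocols, and the cells were purified by FACS. The turnover group holds libraries RP1140A, RP1140B, RP1141A and RP1141B, and the autonomy group holds RP1133, RP1134, RP1135, RP1137 and RP1138; values listed below follow these orders. In thymus grafting, turnover is the state in which progenitors of the host replace the grafted thymocytes, and autonomy the state in which the graft sustains T-cell development from its own cells because such progenitors do not arrive. Of the hosts' genotype and strain, the age and sex of the mice and the number of mice per library, none is stated in the labels. Nor do they say that each library is a separate animal, and the A and B libraries carry the same number, so that p-values measure library-to-library spread, which may be technical.

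DN3 cells lack CD4 and CD8, carry CD25 (Il2ra) and have lost most of Kit and CD44. At this stage RAG proteins rearrange the T-cell receptor beta, gamma and delta genes, and Notch1 and interleukin-7 signals sustain the cells. A beta chain that pairs with pre-T alpha (Ptcra) forms the pre-TCR, and cells that receive its signal leave the resting state, divide fast and move on towards the DP stage, a step named beta-selection. In thymi kept without incoming progenitors, DN3 cells are known as the population from which the organ sustains itself, and such thymi are prone to T-cell leukaemia.

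Total counts were 12260295 to 14846126 in the turnover libraries and 7426834 to 21808512 in the autonomy libraries, with RP1134 the shallowest. The first principal component of log2 CPM (counts scaled to a common library total with TMM factors) carried 41.4% of the variance and separated the groups, with turnover at −66.02 to −45.45 and autonomy at 5.68 to 90.25. The autonomy library nearest to turnover on that axis was RP1135. Among the 703 genes later called higher in autonomy, RP1135 was the autonomy library nearest to the turnover mean for 340 (48.4%), and among the 899 called lower for 450 (50.1%). The second component (16.1%) set RP1134 apart from the rest. Pearson's r of log2 CPM was 0.897 to 0.957 within groups and 0.837 to 0.923 between them.

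Transcripts of DN3 markers were present in all 9 libraries, but not all at like levels in the groups. Il2ra, the CD25 gene, had 469.7, 261, 397 and 445 CPM in turnover and 387, 246, 594, 359 and 250.2 CPM in autonomy. Ptcra had 236, 207, 272 and 281 CPM in turnover and 379, 426, 554, 319 and 262 CPM in autonomy. Rag2, a subunit of the recombinase, had 477, 298, 363 and 774 CPM in turnover and 502, 344, 591, 321 and 249 CPM in autonomy. The groups overlapped for Il2ra, Ptcra and Rag2, and neither Il2ra (log2 autonomy over turnover −0.10, adjusted p = 0.829) nor Rag2 (−0.25, 0.592) passed the test. Ptcra was at log2 0.64 with adjusted p = 0.0521, and passed without autonomy library RP1138 (adjusted p = 0.027). Rag1 averaged 103.3 CPM in turnover and 95.77 CPM in autonomy, Cd3e 200.5 and 156.9 CPM, and Notch3 88.68 and 44.2 CPM, each with overlap. Rag1 and Cd3e did not pass the test (adjusted p = 0.859 and 0.481). Dntt and Kit, given below, were lower in autonomy. Cd44 was at 0 to 1.65 CPM and Cd28 at 0.0816 to 4.58 CPM, both too low to test.

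One turnover library, RP1141B, carried DP transcripts. Cd4 was at 1.12, 1.83, 0.398 and 128 CPM in turnover and 7.34, 3.56, 1.86, 2.84 and 2.05 CPM in autonomy. Cd8a was at 6.52, 6.87, 2.39 and 364 CPM in turnover and 64, 61, 43.4, 36.2 and 67.1 CPM in autonomy. Cd8b1 was at 23.4, 6.54, 13.9 and 581 CPM in turnover and 121, 102, 74.1, 90.1 and 65.2 CPM in autonomy. RP1141B was thus above all other libraries for these 3 coreceptor genes, and the other 3 turnover libraries lay below every autonomy library for all 3. Set against the mean of the 4 DP turnover libraries, with all 18 libraries scaled together, RP1141B reached 17.3% of the Cd4 level, 17.5% of Cd8a and 32.0% of Cd8b1. The other 3 turnover libraries stood at 0.0541% to 1.28% for these genes and the 5 autonomy libraries at 0.255% to 6.86%. In pooled cells a smaller share of a cell type and less RNA per cell cannot be told apart, for these genes and for all others below. Counts over gene lists and their roles are therefore given with and without RP1141B. Of the 125 genes named here as past the threshold, 122 kept the call without it, while Gimap6, Mki67 and Hes1 lost it. The fold changes of Gimap6, Cd2 and Id1 moved by more than 1.5-fold. Many of the 125 were named for passing with and without RP1141B or for the smallest p of their list, which raises that count. Of all 1602 genes called, 1216 (75.9%) kept the call.

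In all, 1602 of 10766 genes tested (14.9%) passed edgeR's quasi-likelihood test at an adjusted p of 0.05: 703 (6.53%) were higher and 899 (8.35%) lower in autonomy, and 171 (1.59%) and 609 (5.66%) were both called and changed at least 2-fold. Without RP1141B 1408 of 10940 genes (12.9%) passed, 651 (5.95%) higher and 757 (6.92%) lower. Both fits shared 1216 genes, all in the same direction, which is 75.9% of the first set and 86.4% of the second. The groups did not overlap for 1982 of the genes tested (18.4%), 877 (8.15%) higher and 1105 (10.3%) lower in autonomy. The median log2 change of all genes tested was −0.05. The shares of all genes called higher and lower are the background for the list counts below. With the A and B libraries of each turnover number summed, 507 genes passed, 170 higher and 337 lower, and 499 of them were among the 1602. Single libraries mattered: the count was 811 without RP1140A, 953 without RP1137 and 1060 without RP1138. In the authors' deposited table of DN3 fold changes 2377 genes had an adjusted p below 0.05, and 1594 of those were among the 1602, all in the same direction.

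Without RP1141B the fold change of 165 of 10757 genes moved by more than 1.5-fold, and the calls of some others changed as well. Cd8a and Cd8b1 were at log2 −0.80 and −0.79 with all 9 libraries (adjusted p = 0.637 and 0.605) and at 3.37 and 2.63 without RP1141B (adjusted p = 0.000684 and 0.00201). RP1141B was left out for its high DP transcripts, these genes among them, so their p-values without it are not a test of a rise. Cd4 was at −3.21 with all 9 libraries and at 1.65 without RP1141B, and passed in neither fit (adjusted p = 0.101 and 0.149). Anxa5, a phospholipid-binding annexin, passed as higher once RP1141B was left out (log2 1.41, adjusted p = 0.00388, against 0.71 and 0.209 with it), as did Camk4, a calmodulin-dependent kinase (1.52 and 0.0124, against 0.89 and 0.149), and Acp5, an acid phosphatase (0.87 and 0.0239, against 0.24 and 0.665). These genes were named because leaving out RP1141B changed their call, so their p-values without it are not a test of a rise either. Gimap6, a GTPase of lymphocytes, was the reverse case: it passed as lower with all 9 libraries (log2 −1.07, adjusted p = 0.0465) and stood at −0.41 with adjusted p = 0.108 without RP1141B. Its call was also lost without any one autonomy library (adjusted p = 0.0527 to 0.101). Of 32 DP stage genes tested, 1 rose and 8 fell with all 9 libraries, and 5 were called higher and 7 lower without RP1141B. As background, all genes tested gave 6.53% higher and 8.35% lower, and 5.95% and 6.92% without RP1141B. The calls of higher without it share the limit given for Cd8a, since DP transcripts were the reason to leave it out. Pag1, an adaptor that holds Src kinases in check, and Tnfrsf1a, a receptor for tumour necrosis factor, passed as lower when RP1141B, their lowest turnover library, was left out (log2 −1.61 and −1.39, adjusted p = 0.0373 and 0.0289) and not with it (log2 −1.34 and −1.15, adjusted p = 0.0755 and 0.0683). Like Anxa5, both were named because leaving out RP1141B changed their call, so the p-values without it are not a test of a fall.

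**Figure D1:**
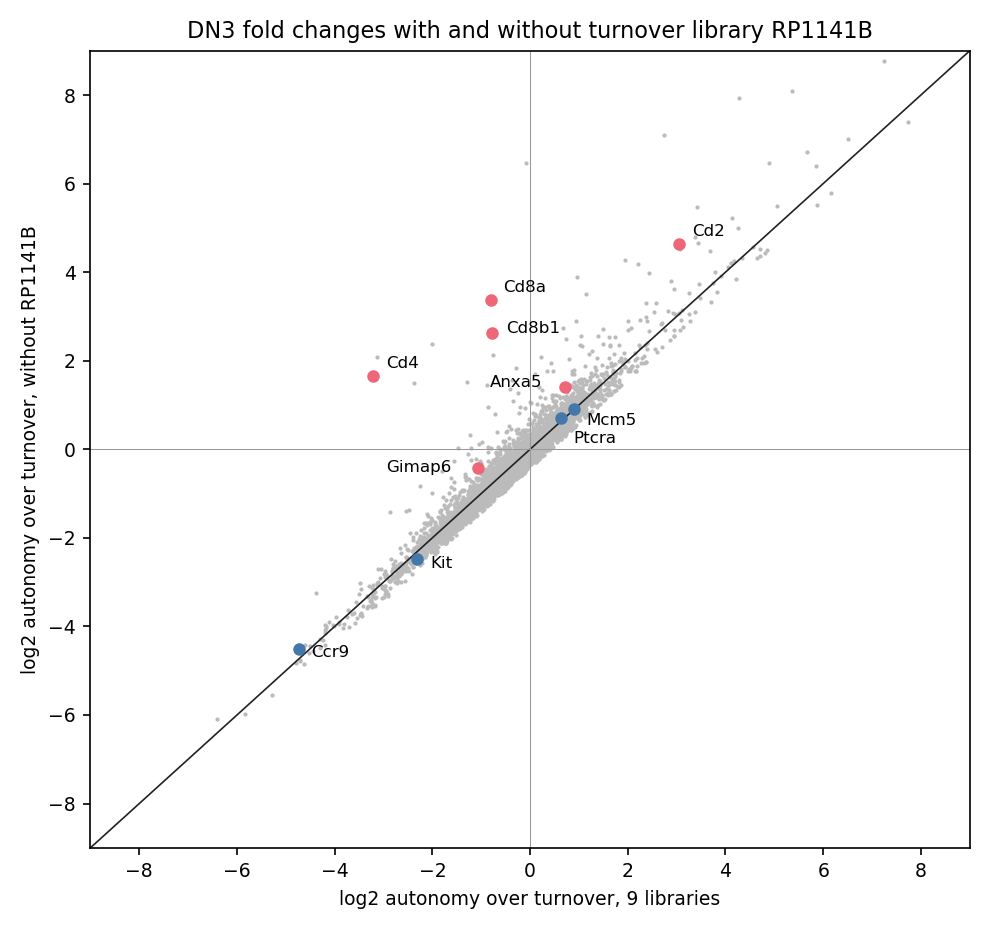
The plot sets the log2 change of 10757 genes over 9 libraries (x axis) against the same without RP1141B (y axis), leaving out genes with no reads in one group; red marks named genes that moved by more than 1.5-fold, blue those that did not, and the line is equality. Cd4, Cd8a and Cd8b1 lie far above the line, while Ccr9, Kit and Mcm5 lie on it.

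The largest rises in autonomy included membrane, cytoskeletal and enzyme genes. Gpr83, a G-protein-coupled receptor, had 0, 1.44, 0.464 and 1.78 CPM in turnover and 90.4, 90.8, 138, 60.6 and 43.1 CPM in autonomy (log2 6.51, SE 0.64, adjusted p = 0.000131). Pdlim4, a PDZ and LIM domain protein of the actin cytoskeleton, had 0.3, 3.27, 0.0663 and 3.56 CPM and 128, 98.4, 118, 85.4 and 92.3 CPM (log2 5.86, SE 0.67, adjusted p = 0.000317). Ctse, the aspartic protease cathepsin E, had 20.6, 12.3, 14.4 and 8.83 CPM and 137, 119, 108, 118 and 113 CPM (log2 3.08, SE 0.24, adjusted p = 3.77e-05). Every autonomy library lay far above every turnover library for these 3 genes, which were picked among genes without overlap. Cd2, the adhesion receptor that binds CD48, had 10.5, 7, 10.2 and 82.2 CPM in turnover and 220.0, 228, 144, 324 and 225 CPM in autonomy. Its change was log2 3.06 (adjusted p = 0.00937) with RP1141B, the highest turnover library, and 4.63 (2.54e-05) without it. The smaller p without RP1141B shares the limit given above for Cd8a. Arsi, an arylsulfatase, rose by log2 4.05, Fbp1, a fructose bisphosphatase of gluconeogenesis, by 3.04, Ptpn14, a tyrosine phosphatase, by 2.96, and Agfg1, a protein of endocytic vesicles, by 2.76. Bmp7, a bone morphogenetic protein, rose by 2.39, and Drc1, a dynein regulatory protein, by 2.15. Fbp1 was at 60.2, 58.2, 166, 58.9 and 36.4 CPM in autonomy, so that RP1135 was the highest there. All 10 stayed past the threshold whichever single library was left out, though passing without RP1141B was part of the rule that picked them. Without RP1141B Gpr83, Pdlim4 and Ctse were at log2 7.0, 6.39 and 2.92.

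More genes fell than rose by at least 2-fold, and Ccr9 was among the largest falls. Ccr9, the receptor for the thymic chemokine CCL25, had 241, 308, 127 and 381 CPM in turnover and 12.2, 23.4, 4.57, 2.95 and 7.38 CPM in autonomy (log2 −4.74, SE 0.52, adjusted p = 0.000234). Scin, an actin-severing protein, had 150.3, 124, 94.2 and 97.7 CPM and 7.91, 2, 10.5, 2.51 and 2.25 CPM (log2 −4.52, SE 0.46, adjusted p = 0.00019). Dhrs3, a retinaldehyde reductase, had 113, 107, 139 and 269.6 CPM and 10.9, 16.1, 29, 15.1 and 20 CPM (log2 −3.10, SE 0.33, adjusted p = 0.000192). The lowest turnover library lay above the highest autonomy library for all 3, which were picked among genes without overlap. Casp1, the inflammasome protease, was at log2 −3.35, Parp8, of the ADP-ribosyltransferase family, at −3.22, Hsd11b1, which activates glucocorticoids, at −2.64, and Tcp11l2 at −2.76. Atp8b4, a phospholipid-transporting ATPase of the P4 family, had 205, 261, 145 and 154 CPM in turnover and 9.22, 6.99, 51.6, 4.7 and 5.62 CPM in autonomy (log2 −3.61, SE 0.63, adjusted p = 0.0033). Nkg7, a granule protein of cytotoxic cells, had 152, 106, 125 and 151 CPM and 9.87, 2.99, 61.3, 8.08 and 5.23 CPM (log2 −2.93, SE 0.68, adjusted p = 0.0134). For both, RP1135 stood well above the other autonomy libraries, though below every turnover library. Without RP1135 Atp8b4 was at log2 −4.85, Nkg7 at −4.34, Casp1 at −4.39 and Parp8 at −4.15. Without RP1141B the 9 falls named here ran from −4.59 for Scin to −2.35 for Hsd11b1. Each passed the test there, as the rule that picked them required.

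**Figure D2:**
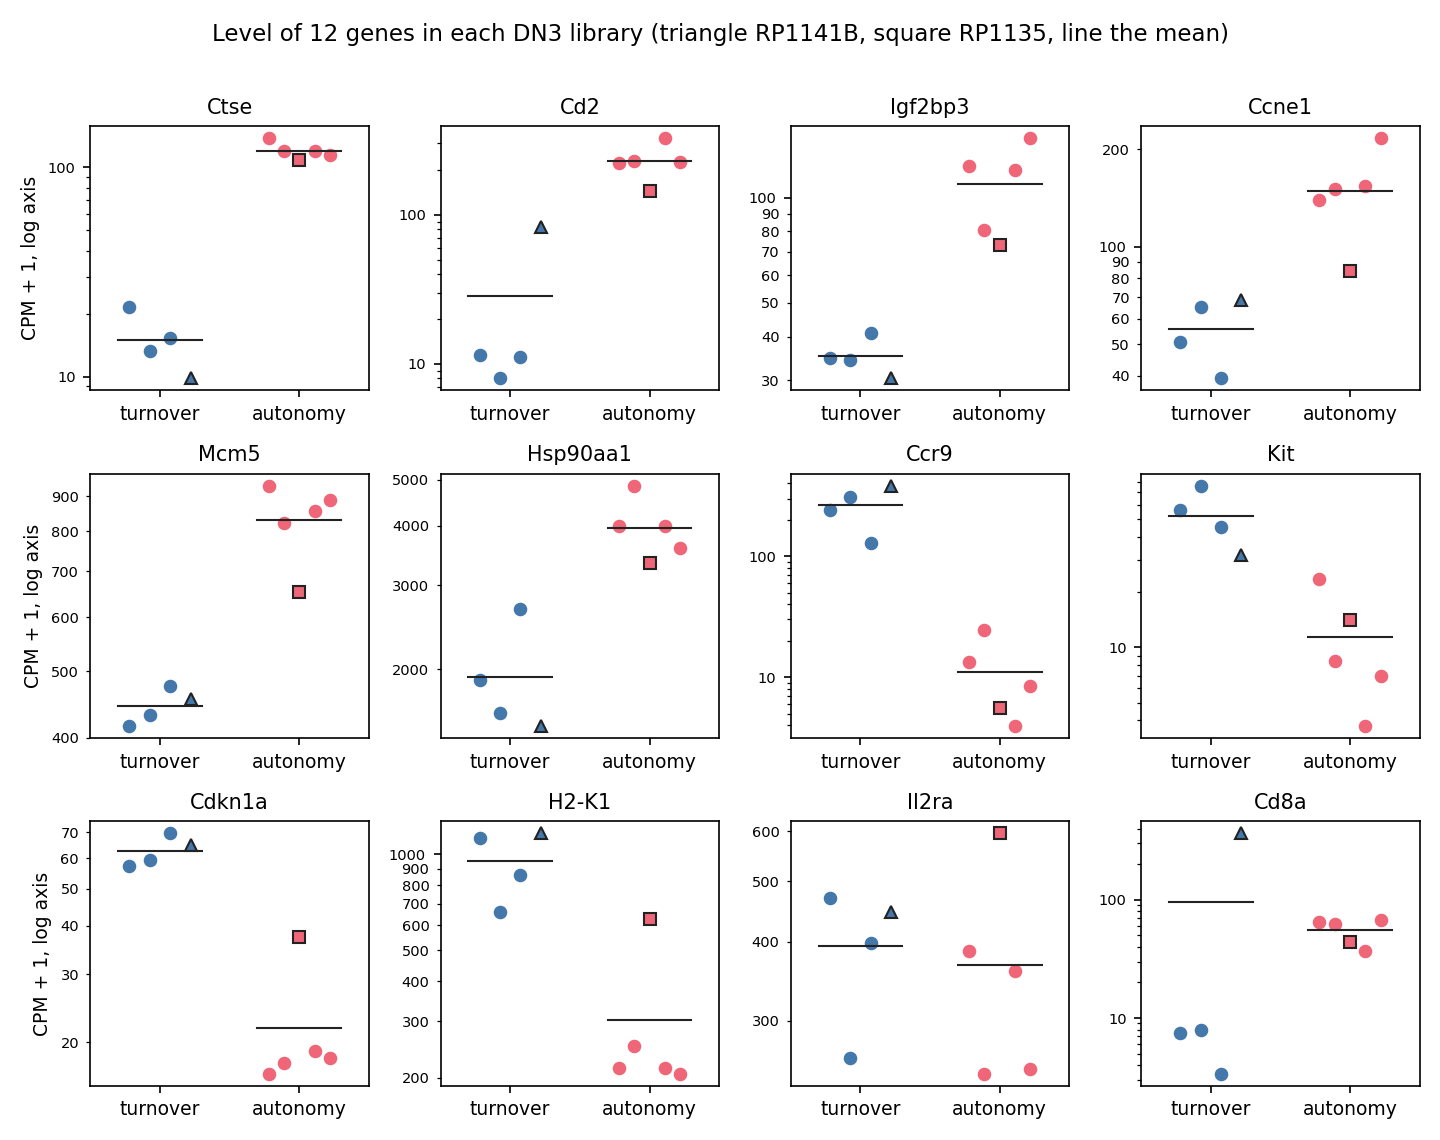
Each panel gives 1 gene's level in the 4 turnover (blue) and 5 autonomy (red) libraries, as CPM + 1 on a log axis, with the line at the mean. Ctse, Cd2, Ccne1, Mcm5 and Hsp90aa1 are higher in every autonomy library, Ccr9, Kit, Cdkn1a and H2-K1 lower, and Il2ra overlaps; in the Cd8a panel RP1141B (triangle) is the highest of all.

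Most genes of DNA replication rose in autonomy. Of 53 genes of replication licensing and the fork, 37 rose and none fell by edgeR (none at an unadjusted p below 0.05, and none by limma voom or DESeq2), where 6.53% of all genes tested were called higher; without RP1141B 33 rose. By role, 12 of 16 genes of origin licensing, 14 of 18 of helicase activation and polymerases and 11 of 19 fork factors rose, and 10, 11 and 12 without RP1141B. The list's median log2 change was 0.63, against −0.05 for all genes. Mcm5, a subunit of the replicative helicase, had 415, 431, 475 and 456 CPM in turnover and 931, 821, 652, 856 and 886 CPM in autonomy (log2 0.90, SE 0.14, adjusted p = 0.00186). Cdc6, which loads that helicase onto origins, had 147, 156, 203 and 176 CPM and 333, 344, 270.4, 325 and 435 CPM (log2 1.0, SE 0.17, adjusted p = 0.00245). The groups did not overlap for either gene, and RP1135 was the lowest autonomy library for both. Gmnn, which keeps origins from firing again, rose by log2 0.94, Orc6, of the origin recognition complex, by 0.92, and Chaf1a, which places histones on new DNA, by 0.97 (adjusted p = 0.00124, 0.00133 and 0.00186). Orc1, the largest subunit of that complex, rose by 0.91 (adjusted p = 0.0166), with overlap between the groups, and lost the call without RP1140A (adjusted p = 0.0594). Pcna, the sliding clamp, had 681, 577, 676 and 536 CPM in turnover and 1207, 909, 899.6, 1103 and 946 CPM in autonomy (log2 0.71, SE 0.15, adjusted p = 0.00803). Without RP1140A 19 of the 53 rose, and with the A and B libraries summed 12. Cdc6 and Orc1 were chosen after their values were seen, for the promoters shown next.

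Replication genes are known as targets of E2F factors, which bind words such as TTTCCCGC and TTTCGCGC, and the promoters of 3 members are shown because each holds such a word. Sequences are RefSeq's, with GRCm38.p6 coordinates, and cover the 250 bases before the annotated start, 5′ to 3′ on the gene's strand. Capitals mark a match, on either strand, to TTTCCCGC, TTTCGCGC, TTTGCCGC or TTTGGCGC.
Mcm5: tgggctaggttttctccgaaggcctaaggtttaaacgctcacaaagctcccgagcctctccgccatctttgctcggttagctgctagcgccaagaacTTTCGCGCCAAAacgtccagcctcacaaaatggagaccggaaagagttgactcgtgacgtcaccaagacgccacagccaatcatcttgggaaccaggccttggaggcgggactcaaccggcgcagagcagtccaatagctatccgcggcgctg
Cdc6: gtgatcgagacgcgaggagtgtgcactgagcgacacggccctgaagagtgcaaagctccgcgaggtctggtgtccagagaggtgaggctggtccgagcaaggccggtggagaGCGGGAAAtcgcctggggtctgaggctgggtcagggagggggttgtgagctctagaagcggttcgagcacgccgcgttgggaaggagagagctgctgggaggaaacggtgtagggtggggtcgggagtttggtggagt
Orc1: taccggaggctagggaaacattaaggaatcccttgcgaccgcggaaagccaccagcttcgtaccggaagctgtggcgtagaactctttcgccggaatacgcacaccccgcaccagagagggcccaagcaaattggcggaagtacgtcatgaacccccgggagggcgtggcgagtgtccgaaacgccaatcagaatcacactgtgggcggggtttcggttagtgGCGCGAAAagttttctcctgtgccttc
These windows are chr8:75109259-75109508, chr11:98907901-98908150 and chr4:108579204-108579453, all on the plus strand, and in Mcm5 a pair of matches overlaps. Of the promoters of the replication list in the RefSeq table, 13 of 56 (23.2%) held a match, against 374 of 10684 (3.5%) for genes tested here and 611 of 32851 (1.86%) for all promoters of this length in the table. Among the list's promoters, 7 of 36 (19.4%) of those of genes that rose held one and 6 of 20 (30.0%) of those of genes that did not pass.  The share was 20.9% (9 of 43) for cell-cycle regulators, 14.5% (8 of 55) for DNA repair genes and 2.44% (1 of 41) for quiescence genes, and a match is a description of the letters only.

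Mitotic genes were the second large group. Of 71 genes of the spindle and kinetochore, 32 rose and none fell by edgeR (26 rose without RP1141B), none fell at an unadjusted p below 0.05, by limma voom or by DESeq2, and the median log2 change was 0.62. Without RP1134 1 fell. Calls of higher made up 6.53% of all genes tested (5.95% without RP1141B). The risers came from every role: 12 of 29 kinetochore and centromere genes, 14 of 28 spindle motor and cytokinesis genes and 6 of 14 condensin and cohesin genes, and 10, 11 and 5 without RP1141B. Hmmr, a spindle assembly factor, had 95.7, 79.4, 94.9 and 95.3 CPM in turnover and 254, 258, 185, 213 and 193 CPM in autonomy (log2 1.27, SE 0.15, adjusted p = 0.000405). Mad2l1, of the spindle checkpoint, had 118, 103, 124 and 117 CPM and 252, 319, 209.7, 254 and 251 CPM (log2 1.15, SE 0.15, adjusted p = 0.000645). All autonomy libraries lay above all turnover libraries for both. Cenpa, the centromeric histone, rose by log2 1.05 and Kif15, a spindle motor, by 1.25 (adjusted p = 0.0017 and 0.00334). Mki67, the Ki-67 proliferation antigen, had 307, 330.5, 337 and 206 CPM in turnover and 420.3, 877, 423, 437 and 516 CPM in autonomy (log2 0.86, SE 0.24, adjusted p = 0.0303). Its call was lost without RP1140A, without RP1138 and without RP1141B, where adjusted p was 0.074, 0.0526 and 0.0678. Without RP1140A 20 of the 71 genes rose, and with A and B summed 11.

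Among 44 cell-cycle regulators, 15 rose and 4 fell (14 and 3 without RP1141B). The shares over all genes tested were 6.53% higher and 8.35% lower (5.95% and 6.92% without RP1141B). The falls of this list were thus near the share of all genes. Of 10 cyclin genes 6 rose and 2 fell (6 and 1 without RP1141B), and of 12 kinases and phosphatases 6 rose and 1 fell (5 and 1). Ccne1, the cyclin E1 gene of S-phase entry, had 49.9, 64.1, 38.2 and 67.5 CPM in turnover and 139, 150.3, 83, 154 and 216 CPM in autonomy (log2 1.43, SE 0.26, adjusted p = 0.00367). Ccnb1, cyclin B1 of mitosis, rose by log2 1.0, Cdk1, its kinase, by 0.81, and Ccne2 by 1.29 (adjusted p = 0.00333, 0.0033 and 0.00186). The D-type cyclins, which link growth signals to the cycle, moved apart. Ccnd3, the D cyclin that pre-TCR signals use, had 281, 278, 289 and 412 CPM in turnover and 768, 581, 429.9, 681 and 739.8 CPM in autonomy (log2 1.02, SE 0.19, adjusted p = 0.0049). Ccnd2 had 417, 327, 526 and 506 CPM and 105, 86.3, 369, 114 and 179.5 CPM (log2 −1.38, SE 0.36, adjusted p = 0.0238), with RP1135 near the turnover libraries. The call of Ccnd2 was lost without any one of RP1140A, RP1141A, RP1133 and RP1137 (adjusted p = 0.0559, 0.0564, 0.0508 and 0.0628). Cdkn1a, the p21 inhibitor of cyclin-dependent kinases, had 56.1, 58.3, 68.5 and 63.8 CPM and 15.6, 16.7, 36.4, 18 and 17.2 CPM (log2 −1.57, SE 0.25, adjusted p = 0.00228), and RP1135 was the highest autonomy library. Among the E2F and Rb family, 2 of 17 rose, with and without RP1141B. With A and B summed 7 regulators rose and 1 fell, and 1 fell without RP1140A or without RP1137 and 2 without RP1140B or without RP1138.

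Genes that supply DNA precursors followed. Of 28 genes of nucleotide synthesis 13 rose and 1 fell, with and without RP1141B. For the lists of this paragraph, the shares over all genes tested were 6.53% higher and 8.35% lower (5.95% and 6.92% without RP1141B). Dut, the dUTPase that keeps uracil out of DNA, had 426, 603, 568 and 399 CPM in turnover and 1084, 1259, 1013, 1225 and 1087 CPM in autonomy (log2 1.18, SE 0.16, adjusted p = 0.000851). Rrm1, a subunit of ribonucleotide reductase, rose by log2 0.81 and Tk1, thymidine kinase, by 0.87. The member that fell was Ctps2, a CTP synthase (log2 −0.95, adjusted p = 0.00228). Of 18 genes of one-carbon and serine metabolism 9 rose and none fell (8 without RP1141B). Mthfd2, the mitochondrial folate enzyme, had 111, 92.9, 124 and 92.7 CPM and 199, 252, 179, 229.8 and 254 CPM (log2 1.08, SE 0.16, adjusted p = 0.00143), with no overlap. Of 63 DNA repair and checkpoint genes 12 rose and 2 fell (10 and 2 without RP1141B), and 9 of the 12 were among the 30 of homologous recombination and the Fanconi pathway (7 of the 10 without RP1141B). Exo1, an exonuclease of end resection, rose by log2 1.03, while Trp53bp1, which favours end joining, fell by 0.71. With A and B summed 4 nucleotide, 1 one-carbon and 3 repair genes rose. Without RP1140A the one-carbon count was 4 and without RP1137 it was 5, and without RP1140A 6 repair genes rose and without RP1138 7.

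**Figure D3:**
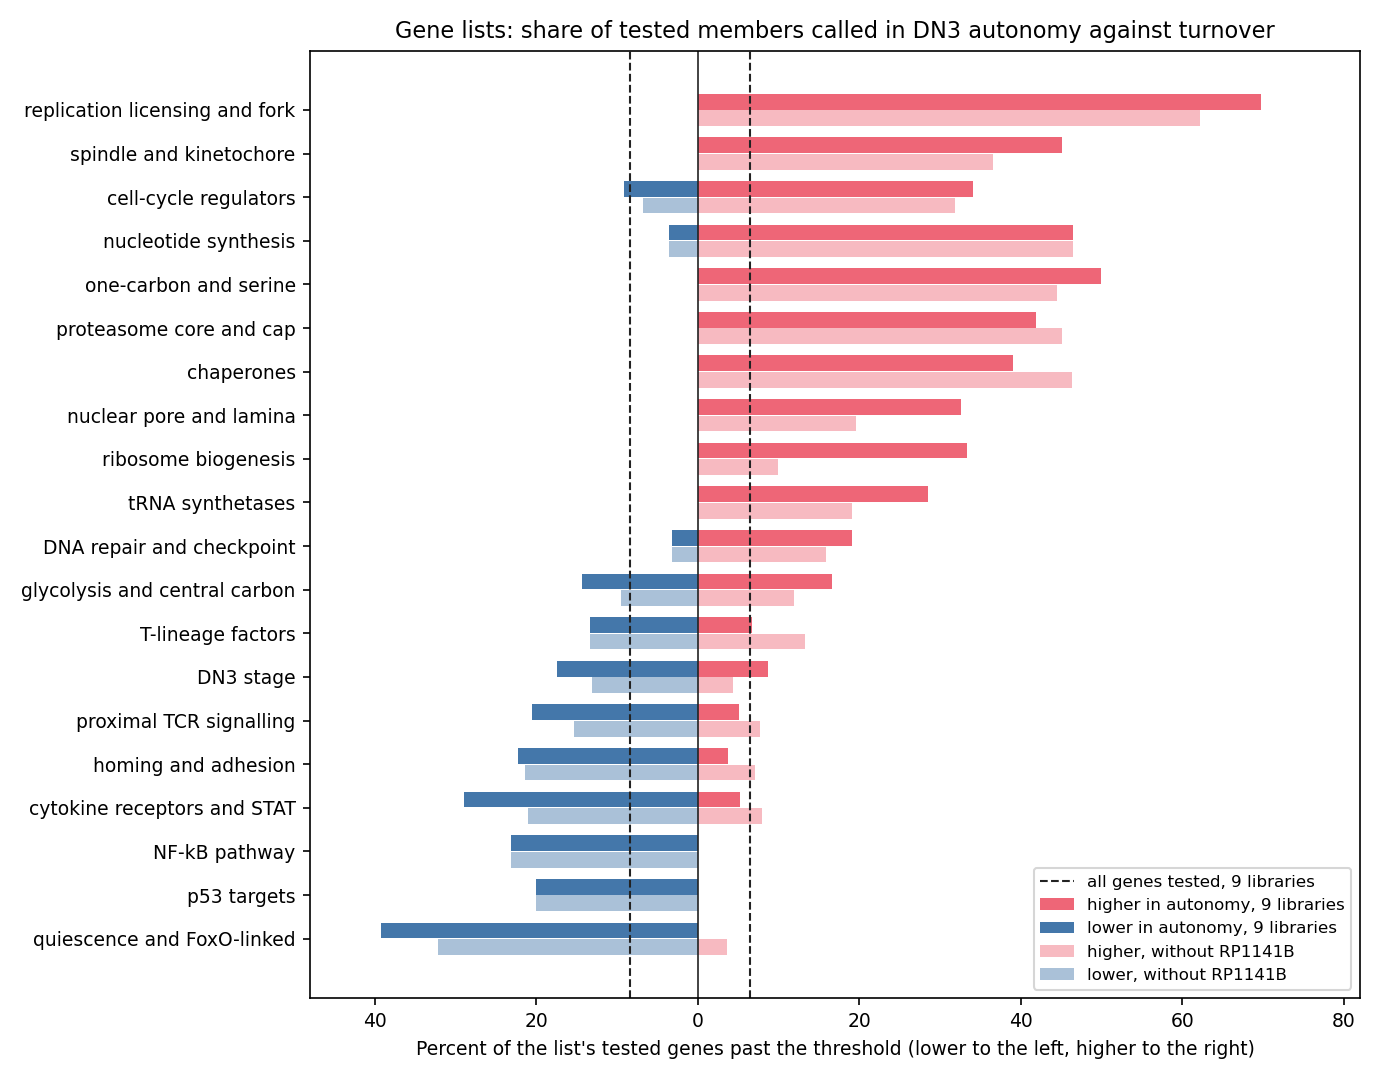
Bars give the percent of each list's tested genes called higher (right, red) or lower (left, blue) in autonomy with 9 libraries (full colour) and without RP1141B (pale); the dashed lines mark all genes tested, 6.53% higher and 8.35% lower. Of the 20 lists, replication extends furthest to the right, at 37 of 53 genes, and quiescence furthest to the left, at 11 of 28; ribosome biogenesis shortens most without RP1141B, from 10 to 3 genes.

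Some genes of protein folding and breakdown rose as well. As background for the lists of this paragraph, 6.53% of all genes tested were called higher (5.95% without RP1141B). Of 41 chaperone genes 16 rose and none fell by edgeR (19 rose without RP1141B), while 2 fell at an unadjusted p below 0.05, 1 each by limma voom and DESeq2 and 1 by edgeR without RP1135. Hsp90aa1, the inducible HSP90, had 1898, 1620, 2674 and 1520 CPM in turnover and 3991, 4849, 3335, 4003 and 3592 CPM in autonomy (log2 1.04, SE 0.19, adjusted p = 0.00403), and Hspd1, the mitochondrial HSP60, rose by log2 0.93. Of 31 core and cap subunits of the proteasome 13 rose (14 without RP1141B). Psmd14, a deubiquitinase of the cap, rose by 0.67 and Psma1, of the core, by 0.61. Of the 6 immunoproteasome genes none passed by edgeR (none at an unadjusted p below 0.05, by limma voom or by DESeq2), and their median log2 change was 0.00 against 0.51 for the core and cap. Psmb8, an immunoproteasome subunit chosen after its values were seen, had 1550, 1180, 1638 and 1598 CPM in turnover and 1732, 1888, 1810, 1746 and 1438 CPM in autonomy (log2 0.21, adjusted p = 0.354). Whether both kinds of subunit differ was not tested. Of 46 nuclear pore and lamina genes 15 rose (9 without RP1141B), among them Lmnb1, lamin B1 (log2 0.80), and Rangap1, the GTPase activator of Ran (log2 1.0). Of 30 ribosome biogenesis genes 10 rose (3 without RP1141B), among them Nolc1 (log2 0.91), a nucleolar chaperone. Of 21 tRNA synthetases, which charge tRNAs with amino acids, 6 rose. The tRNA synthetase count was 4 without RP1141B, 3 without RP1133, 2 without RP1140B and 1 without RP1140A, RP1137 or RP1138. These counts depended on single libraries. Without RP1140A 7 chaperone, 5 proteasome, 7 nuclear pore and 1 ribosome biogenesis gene rose. Without RP1137 the counts were 10, 7, 9 and 1, and without RP1138 they were 9, 8, 9 and 1. Without RP1140B 7 proteasome and 3 ribosome biogenesis genes rose. With A and B summed 3 chaperone, 1 proteasome, 2 nuclear pore and 1 ribosome biogenesis gene rose, and no tRNA synthetase by edgeR (9 at an unadjusted p below 0.05). Myc, a driver of these growth genes, had 557, 623, 747 and 651 CPM in turnover and 511, 329, 490.5, 463 and 565 CPM in autonomy (log2 −0.45, adjusted p = 0.0834).

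Central carbon metabolism genes were called both ways, with 7 of 42 higher and 6 lower (5 and 4 without RP1141B). Of all genes tested 6.53% were called higher and 8.35% lower (5.95% and 6.92% without RP1141B). Ldha, lactate dehydrogenase A, had 1573, 1288, 1944 and 1548 CPM in turnover and 3013, 2473, 1884, 3059 and 3049 CPM in autonomy, and Hif1a, the hypoxia factor, rose by log2 0.84. Ldha was at log2 0.76 with adjusted p = 0.0152, and adjusted p = 0.0523 without RP1140A. Pdk1, a kinase that inhibits pyruvate dehydrogenase, had 68.8, 74.3, 65.1 and 76 CPM and 32.5, 29.4, 40.2, 30.4 and 32.9 CPM (log2 −1.10, SE 0.16, adjusted p = 0.00125). Bnip3l, a mitophagy receptor, fell by 0.89 and Idh2, the mitochondrial isocitrate dehydrogenase, by 0.71. Without RP1140A 1 gene of this list rose, without RP1137 or RP1138 3, without RP1133 4 and without RP1135 11. With A and B summed none rose by edgeR, and 10 did at an unadjusted p below 0.05.

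Part of the genes of the resting state fell. Of 28 quiescence and FoxO-linked genes 11 fell and none rose by edgeR (9 fell and 1 rose without RP1141B, and 1 rose without RP1134), where 8.35% of all genes tested were called lower; 3 rose at an unadjusted p below 0.05, 1 by limma voom and 2 by DESeq2. Pik3ip1, an inhibitor of PI3-kinase, had 157, 152, 133 and 189 CPM in turnover and 27.8, 21.2, 59.8, 14.1 and 13.6 CPM in autonomy (log2 −2.53, SE 0.38, adjusted p = 0.00141). Btg2, an antiproliferative factor, had 99.6, 84.5, 101 and 208 CPM and 44.7, 42.1, 57, 39 and 38.3 CPM (log2 −1.48, SE 0.25, adjusted p = 0.00294). The groups did not overlap for either gene, and RP1135 was the highest autonomy library for both. Ypel3, linked to growth arrest, fell by 2.73. Of 25 p53 targets 5 fell and none rose by edgeR, with and without RP1141B and without any other single library, while at an unadjusted p below 0.05 3 rose (2 without RP1141B). None rose by limma voom, nor by DESeq2 with all 9 libraries, and 1 by DESeq2 without RP1141B. The 5 that fell were Cdkn1a, Btg2, Sesn1 (fell by 0.97), a stress-induced inhibitor of mTORC1 signalling, Trp53inp1 (fell by 1.77) and, named after its value was seen, Xpc, a DNA damage sensor (fell by 0.95). Btg2 and Sesn1 count under the quiescence list too. Trp53 itself had 338, 350.5, 340.0 and 332 CPM in turnover and 363, 152, 291, 366 and 288 CPM in autonomy (log2 −0.22, adjusted p = 0.508). Bcl2, the survival gene, had 107, 105, 98.7 and 74.7 CPM and 37.1, 48.3, 46.4, 37.5 and 48.4 CPM (log2 −1.15, SE 0.17, adjusted p = 0.00136), and Bid, a death gene of the same family, rose by log2 1.02. Without RP1140A 7 quiescence genes fell, and with A and B summed 7 quiescence genes and 5 p53 targets.

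**Figure D4:**
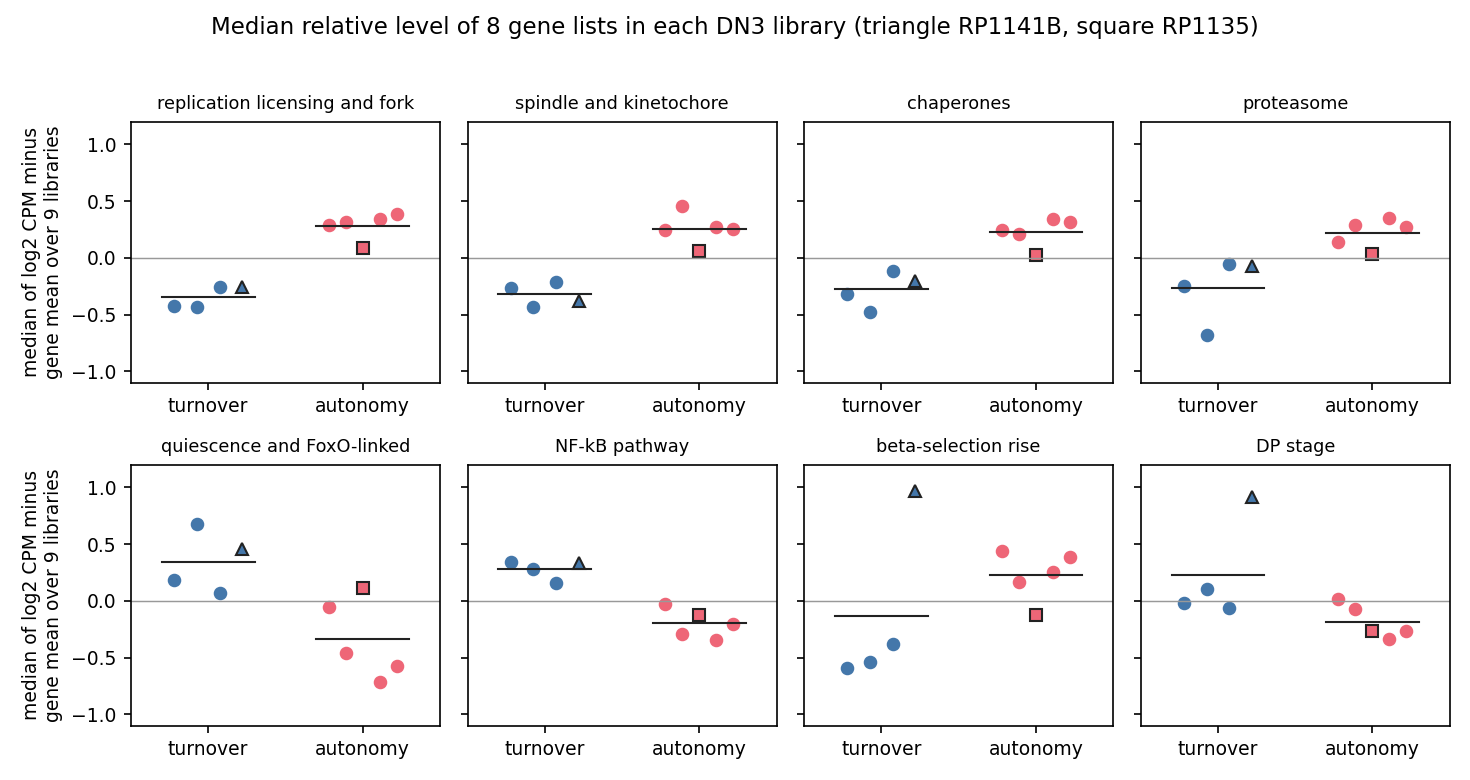
Points give, for 8 gene lists, the median over members of log2 CPM minus the gene's mean over the 9 libraries, 1 point per library, with lines at the group means. Replication members run from −0.43 to −0.25 in turnover and 0.08 to 0.39 in autonomy; RP1135 (square) is the lowest autonomy library there, and RP1141B (triangle) is the highest library for beta-selection rise and DP stage genes.

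Of 26 NF-kB pathway genes 6 fell, 20 did not pass and none rose by edgeR, with and without RP1141B, while 1 rose at an unadjusted p below 0.05 in both fits. None rose by limma voom, nor by DESeq2 with all 9 libraries, and 1 by DESeq2 without RP1141B. The share of all genes tested called lower by edgeR was 8.35% (6.92% without RP1141B). Tifa, an adaptor that binds TRAF proteins, had 39.4, 29.7, 35.5 and 37.2 CPM in turnover and 1.22, 0.998, 4.66, 0.437 and 3.28 CPM in autonomy (log2 −4.01, SE 0.50, adjusted p = 0.000501). Ltb, the lymphotoxin beta gene that signals to thymic stroma, had 89.5, 67.7, 68.6 and 196 CPM and 19, 23.1, 36.8, 17.4 and 21.6 CPM (log2 −2.16, SE 0.33, adjusted p = 0.00161), and without RP1141B, its highest library, it stood at log2 −1.67. Tnfaip3, the A20 inhibitor of the pathway, fell by 1.56. The groups did not overlap for these 3 genes. With A and B summed 3 NF-kB genes fell, where 337 of all 11231 genes tested did.

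Most progenitor and homing genes did not pass the test. Of 16 early progenitor genes 3 fell and 1 rose, with and without RP1141B, and 5 fell without RP1135. For this and the other lists of this paragraph, all genes tested gave 8.35% lower and 6.53% higher (6.92% and 5.95% without RP1141B). Kit, the stem cell factor receptor, had 55.1, 75.1, 44.5 and 30.8 CPM in turnover and 22.5, 7.41, 13.1, 2.73 and 6.01 CPM in autonomy (log2 −2.31, SE 0.48, adjusted p = 0.00789). Hoxa7, a homeobox factor, had 14.2, 5.43, 29 and 31.3 CPM and 0.734, 0, 0.373, 0 and 0 CPM (log2 −6.41, SE 0.89, adjusted p = 0.000871), and without RP1133 it was at log2 −7.66. Nfe2, a factor of erythroid and megakaryocytic cells, fell by 2.51, and stood at log2 −3.53 without RP1135, its highest autonomy library. The one that rose was Id1, an inhibitor of E proteins, which had 0.15, 0.327, 0 and 0.929 CPM in turnover and 23.1, 23.5, 31.5, 8.08 and 3.23 CPM in autonomy (log2 5.66, SE 0.89, adjusted p = 0.00186), and was at log2 6.72 without RP1141B. Id1 counts under both lists, since it is also an Id gene, and of 3 Id genes tested Id2 rose as well (log2 1.20) while Id3 was at 70.2, 75.9, 88.9 and 95.3 CPM and 86.2, 126, 59, 107 and 103 CPM (log2 0.22, adjusted p = 0.498). Of the 3 E proteins tested, to which Id proteins bind, 1 fell, Tcf4, which had 83.2, 67.9, 83.6 and 85.3 CPM and 37.3, 35.2, 62.2, 39.5 and 37.3 CPM (log2 −0.92, SE 0.19, adjusted p = 0.00883). Among 27 homing, adhesion and egress receptors 6 fell and 1 rose (6 and 2 without RP1141B), Ccr9 among the 6. P2ry14, a receptor for UDP-glucose, had 17.2, 10.9, 14.3 and 6.43 CPM and 2.94, 1.43, 5.32, 1.75 and 3.18 CPM (log2 −2.05, SE 0.44, adjusted p = 0.00951), with no overlap. Without RP1140A 3 homing genes fell, and with A and B summed 3. The rise of 1 homing gene was lost without any one library other than RP1138 and RP1141B (1 or 2 at an unadjusted p below 0.05). Id3 was chosen after its values were seen.

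Among transcripts of antigen receptor and cytokine signalling genes more fell than rose, and most did not pass the test. Over all genes tested more fell than rose too, 8.35% against 6.53% (6.92% against 5.95% without RP1141B). Of 39 proximal TCR signalling genes 8 fell and 2 rose (6 and 3 without RP1141B). Tec, a Tec-family kinase, had 46, 43.2, 47.9 and 73.1 CPM in turnover and 12, 22.8, 27.6, 8.41 and 19.3 CPM in autonomy (log2 −1.54, SE 0.32, adjusted p = 0.00776). Lat2, an adaptor of B and myeloid cells, fell by 3.23 (log2 −4.22 without RP1135) and Vav3, a guanine nucleotide exchange factor, by 1.54. Lck, the kinase of CD4 and CD8, was at 2222, 1852, 2262 and 3520 CPM and 1960, 1989, 1896, 1868 and 1797 CPM (log2 −0.37, adjusted p = 0.165). Zap70, which the activated receptor recruits, had 107, 89.3, 118 and 182 CPM and 227, 213, 158, 242 and 259.5 CPM (log2 0.83, SE 0.21, adjusted p = 0.0224), and log2 1.07 with adjusted p = 0.00561 without RP1141B. Its call was lost without RP1140A, RP1140B, RP1141A, RP1137 or RP1138 (adjusted p = 0.0759, 0.0558, 0.0512, 0.0531 and 0.0515). Of 38 genes of cytokine receptors and the STAT pathway 11 fell and 2 rose (8 and 3 without RP1141B). Stat4, which transmits interleukin-12 signals, had 72.6, 83.8, 78.9 and 87 CPM in turnover and 33.7, 13.6, 42.7, 42.4 and 22.9 CPM in autonomy (log2 −1.37, SE 0.28, adjusted p = 0.00763). Il27ra fell by 0.99, and Socs2, a feedback inhibitor, rose by log2 1.69. Il7r, the interleukin-7 receptor alpha chain, had 131, 170.0, 139.5 and 106 CPM and 133, 96.5, 214, 112 and 94.7 CPM, with overlap (log2 −0.07, adjusted p = 0.865). Without RP1140A 4 TCR signalling and 3 cytokine genes fell, without RP1133 5 and 6, and without RP1138 5 and 4. Without RP1140B 7 cytokine genes fell, without RP1137 4, and with A and B summed 2 of each list. The 2 TCR signalling genes that rose lost the call without RP1140A, RP1140B, RP1141A or RP1137, where 3 rose at an unadjusted p below 0.05. Lck was chosen after its values were seen.

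Of 30 T-lineage transcription factors 2 rose, 4 fell and 24 did not pass (4 rose and 4 fell without RP1141B), where all genes tested gave 6.53% and 8.35%. The number that fell was 2 without any one of RP1140A, RP1140B, RP1133 and RP1137. Bcl11b, the factor of T-cell commitment, had 299, 472, 277 and 242 CPM in turnover and 157, 155, 188, 128 and 149.8 CPM in autonomy (log2 −1.05, SE 0.19, adjusted p = 0.00422). Myb, needed at beta-selection, had 447, 717, 426 and 463 CPM and 186, 219, 324, 231 and 214 CPM (log2 −1.13, SE 0.20, adjusted p = 0.00335). Lef1, a DNA-binding partner of beta-catenin, had 189, 197, 194 and 246 CPM and 378, 279.9, 368, 377 and 344 CPM (log2 0.76, SE 0.15, adjusted p = 0.00542). Tcf7, the gene of its close relative TCF1, had 591, 932, 598 and 572 CPM and 585, 606, 450.5, 522 and 677 CPM (log2 −0.24, adjusted p = 0.374), and Gata3 had 300.2, 267, 413 and 419 CPM and 134, 283, 132, 170.1 and 292 CPM (log2 −0.79, adjusted p = 0.058). Gata3 passed without RP1134 and without RP1138 (adjusted p = 0.0346 and 0.0406). Ikzf3, the gene of Aiolos, had 6.6, 6.61, 10.7 and 22.9 CPM and 48, 31.9, 35.6, 43.5 and 46.1 CPM (log2 1.81, SE 0.36, adjusted p = 0.00611), with RP1141B the highest turnover library.

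Stage markers around beta-selection gave no single direction. Of 23 DN3 stage genes 2 rose and 4 fell (1 and 3 without RP1141B), against 6.53% and 8.35% of all genes. The number that fell was 2 without RP1140A, RP1141A or RP1133 and with A and B summed. Dntt, terminal transferase, which adds bases at receptor joints, had 3969, 3570, 3480 and 3097 CPM in turnover and 2126, 1617, 2345, 1601 and 1395 CPM in autonomy (log2 −0.96, SE 0.17, adjusted p = 0.00367). Dtx1, a Notch target, had 43.9, 45.7, 46.2 and 35.9 CPM and 131, 79.99, 177, 72.9 and 66.2 CPM (log2 1.30, SE 0.28, adjusted p = 0.0099). Notch1 itself had 1303, 1370, 1043 and 679 CPM and 1998, 826, 1707, 1264 and 843 CPM, with overlap (log2 0.27, adjusted p = 0.539). Hes1, another Notch target, had 143, 147, 151 and 172 CPM and 69.7, 46, 145, 75.9 and 78.5 CPM (log2 −0.88, adjusted p = 0.0355), and its call was lost when any one library other than RP1134 or RP1135 was left out (adjusted p = 0.0615 to 0.0844). Of 18 genes known to rise at beta-selection 4 rose and 3 fell, and without RP1141B 7 of 19 rose and 2 fell. Their median went from −0.21 to 0.65. RP1141B was the highest library for this list, so the rises without it share the limit given for DP transcripts. Without RP1140A or RP1141A 1 fell, and none by edgeR without RP1137 or with A and B summed, where 4 fell at an unadjusted p below 0.05. The 4 that rose were Ccnd3, Ikzf3, Cd2 and Slc3a2, a heavy chain of amino acid transporters, whose call was lost without RP1140A and without RP1137 (adjusted p = 0.0607 and 0.0556). Cd27, a costimulatory receptor of the same list, had 122, 111, 135 and 216 CPM and 97.5, 89, 86.5, 69.5 and 69.7 CPM (log2 −0.83, SE 0.20, adjusted p = 0.0178), and lost the call without RP1137 (adjusted p = 0.0544). Of 18 genes known to fall at that step 2 rose and 4 fell (1 and 4 without RP1141B).

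T-cell receptor segments, named and summed by class after their values were seen, differed by locus. As background, all genes tested gave 6.53% higher and 8.35% lower (5.95% and 6.92% without RP1141B). The beta V segments summed to 600.0 to 1204 CPM in turnover and 443.5 to 1138 CPM in autonomy, which overlap, and of 21 tested 1 rose (3 without RP1141B). All 7 segments of the J1 cluster fell, with and without RP1141B, with log2 changes of −2.53 to −2.17, and their sum was 424, 328, 258 and 417 CPM in turnover against 84.8, 51.2, 94.2, 49.6 and 54.6 CPM in autonomy. Trbc1, the constant gene downstream of that cluster, had 1007, 862, 959 and 1392 CPM in turnover and 235, 182, 353, 471 and 409 CPM in autonomy (log2 −1.68, SE 0.26, adjusted p = 0.00161). Trbc2, the second constant gene, had 1033, 848, 1132 and 1465 CPM and 1049, 988, 819, 999 and 1004 CPM (log2 −0.20, adjusted p = 0.421). Trbc1 thus did not overlap between the groups and Trbc2 did, and of 6 segments of the J2 cluster 2 fell (1 without RP1141B). The 2 constant genes are close copies, so reads can be shared between them. In the gamma locus Tcrg-V1 had 54, 47.1, 45.1 and 45.5 CPM and 193, 211, 197, 213 and 150.1 CPM (log2 2.01, SE 0.16, adjusted p = 3.77e-05), and Tcrg-V3 rose by log2 2.35. Tcrg-C1 had 1472, 1184, 1248 and 1301 CPM and 516, 527, 893, 592 and 516 CPM (log2 −1.10, SE 0.18, adjusted p = 0.00232), and Tcrg-C3 rose by log2 1.32. Trdc, the delta constant gene, had 335, 202, 270.0 and 278 CPM and 71.7, 59.7, 143, 112 and 95.2 CPM (log2 −1.49, SE 0.24, adjusted p = 0.00201). Without RP1141B the log2 changes were −1.51 for Trbc1, 1.99 for Tcrg-V1, 2.36 for Tcrg-V3, −1.09 for Tcrg-C1, 1.26 for Tcrg-C3 and −1.48 for Trdc, each past the test. The alpha J segments and constant gene, which open at the DP stage, summed to 8.32, 10.3, 9.21 and 226 CPM in turnover and 27.1, 19.7, 5.88, 27.1 and 37.3 CPM in autonomy, and RP1141B was again the highest.

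**Figure D5:**
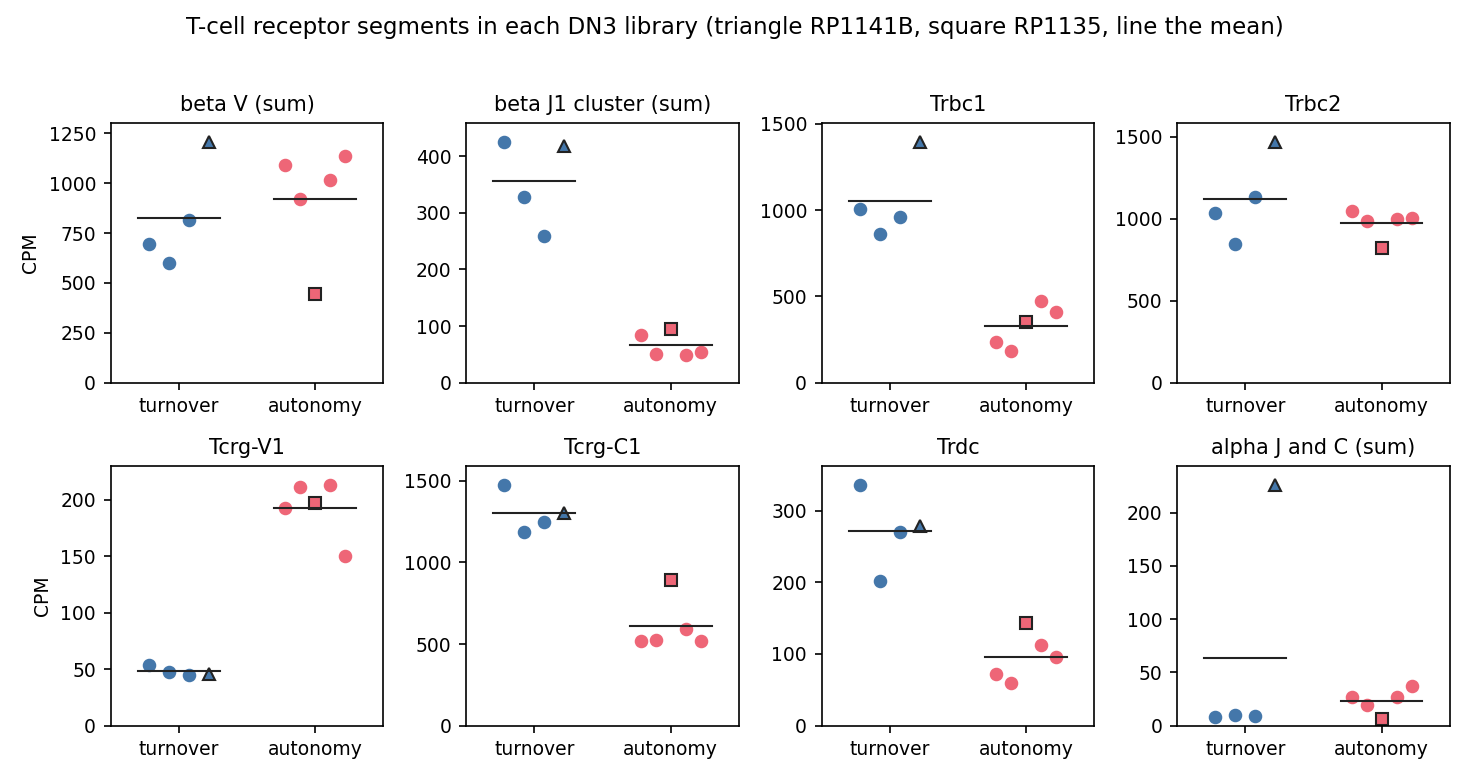
Panels give CPM (linear axes from 0) of receptor segments in each library, summed over a class where the title says so, with turnover in blue and autonomy in red. The beta J1 cluster, Trbc1, Tcrg-C1 and Trdc are lower in all 5 autonomy libraries and Tcrg-V1 higher, while beta V and Trbc2 overlap; alpha J and C is high in RP1141B (triangle) at 226 CPM.

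Genes of MHC class I and antigen presentation moved in both directions. Of 22 genes of class I and antigen presentation 4 rose and 6 fell, with and without RP1141B, where all genes tested gave 6.53% and 8.35%. H2-K1, a classical heavy chain, had 1118, 656, 861 and 1159 CPM in turnover and 214, 251, 625, 213 and 205 CPM in autonomy (log2 −1.65, SE 0.32, adjusted p = 0.00591). H2-D1, the other, had 910.2, 664, 729 and 1230 CPM and 321, 410.5, 629, 329 and 285 CPM (log2 −1.16, SE 0.24, adjusted p = 0.00876). RP1135 was the highest autonomy library for both, at about the level of the lowest turnover library. The non-classical H2-Q2 had 30.1, 28.7, 38.6 and 47.4 CPM and 243, 253, 144, 265 and 248 CPM (log2 2.67, SE 0.22, adjusted p = 5.84e-05), while H2-Q7 had 88.2, 88.9, 61.2 and 71.7 CPM and 0.571, 11.1, 14.8, 0 and 0 CPM (log2 −3.92, SE 1.04, adjusted p = 0.0244), a call lost without RP1140A (adjusted p = 0.0614). Without RP1135 H2-Q7 was at log2 −4.95. In GRCm38 H2-Q2 begins at 35342242 and H2-Q7 at 35439155 of chromosome 17, and reads can be shared among these near-identical genes, so their values are uncertain. The same limit holds for the Ifi200 family of DNA sensors, of which 3 of 8 rose and 1 fell (2 and 1 without RP1141B). Ifi204 had 7.8, 0.0654, 5.63 and 4.11 CPM and 99, 73.1, 156, 60.6 and 57.2 CPM (log2 4.35, SE 0.68, adjusted p = 0.00188), and Aim2, the inflammasome sensor, had 38.5, 28.1, 29.6 and 23.2 CPM and 7.34, 5.28, 14.6, 5.13 and 5.28 CPM (log2 −1.99, SE 0.34, adjusted p = 0.00277). By the meaning of the group names given above, turnover cells come from the host and autonomy cells from the graft, so for these polymorphic families the state of the thymus and strain alleles, should host and graft differ in strain, cannot be told apart.

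Chromatin genes moved in both directions. Of 48 genes of chromatin and DNA methylation 10 rose and 6 fell (10 and 7 without RP1141B). For this and the other lists of this paragraph, the shares over all genes tested were 6.53% higher and 8.35% lower (5.95% and 6.92% without RP1141B). Hells, a remodeller needed for DNA methylation, had 263, 295, 257 and 263 CPM in turnover and 414, 814, 446, 564 and 672 CPM in autonomy (log2 1.11, SE 0.20, adjusted p = 0.00345), and Smarca4, the BRG1 ATPase, had 591, 680.3, 514 and 409.5 CPM and 264, 288, 344, 228 and 253 CPM (log2 −0.99, SE 0.17, adjusted p = 0.00329). Tet2, a DNA demethylase, fell by 1.85. Without RP1140A 4 genes of this list rose and 2 fell, without RP1140B 3 fell, and with A and B summed 5 rose and 2 fell. Of 7 fetal and Lin28-linked genes 3 rose, with and without RP1141B. Igf2bp3, an RNA-binding protein of fetal cells, had 33.8, 33.4, 40.04 and 29.4 CPM and 122, 79.99, 72.1, 119 and 147 CPM (log2 1.66, SE 0.23, adjusted p = 0.000833), and Hmga1, a chromatin protein, rose by log2 1.01. Igf2, a fetal growth factor, had no reads in any turnover library and 10.6, 1.14, 3.64, 0.874 and 2.44 CPM in the autonomy libraries, which is at least 17.6-fold higher against a floor of 3 counts per library, and at least 9.5-fold without RP1133, its highest library. Myh10, a non-muscle myosin, had 3.52, 2.55, 3.05 and 3.25 CPM and 24.5, 28.7, 37.5, 18.7 and 25.1 CPM (log2 3.12, SE 0.28, adjusted p = 8.94e-05), while of 48 actin cytoskeleton genes 6 rose and 5 fell (3 and 3 without RP1141B or RP1133, 2 and 2 without RP1140A or RP1137, 2 and 3 without RP1138, and 1 and 2 with A and B summed). Of 7 Gimap genes 1 rose and 3 fell with all libraries, and none passed without RP1141B by edgeR, where 1 rose and 2 fell at an unadjusted p below 0.05 and 1 rose by DESeq2. Without RP1133, RP1137 or RP1138 none passed either, and 1 rose and 3 fell at an unadjusted p below 0.05.

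Markers of other cell types differed in level and direction. The 14 NK and innate lymphoid markers summed to 1160 to 1620 CPM in turnover and 1740 to 2450 CPM in autonomy. Most of each sum was Gzma alone, so the sums do not describe the list as a whole. Of the 4 tested, Gzma, a granzyme, and Id2 rose and Nkg7 fell, and Klrd1, Klrk1 and Areg were at 0 in all 9 libraries. Gzma had 1317, 1041, 1480 and 1108 CPM in turnover and 1783, 2416, 1776, 1933 and 1712 CPM in autonomy (log2 0.64, SE 0.16, adjusted p = 0.0194), a call lost without RP1140A (adjusted p = 0.0518). Cpa3, a mast cell carboxypeptidase, had 107, 47.2, 88.9 and 114 CPM in turnover and 21.6, 10.7, 25.6, 2.84 and 2.69 CPM in autonomy (log2 −2.81, SE 0.58, adjusted p = 0.00786), while 7 of the 12 mast cell and granulocyte markers were at 0 in every library. Lyz2, a macrophage lysozyme, had 32.5, 27, 23.6 and 16 CPM and 1.06, 3.14, 10.8, 2.29 and 2.44 CPM (log2 −2.65, SE 0.54, adjusted p = 0.00709), with log2 −3.48 without RP1135, and the 12 macrophage and monocyte markers summed to 21.7 to 36.9 CPM in turnover and 5.3 to 17.5 CPM in autonomy. H2-Ab1, a class II chain, fell by 1.96, Cd79b, a B-cell receptor subunit, by 1.48, Epcam, of epithelium, by 1.25, and Pecam1, of endothelium, by 0.82. The 12 B-cell markers summed to 638 to 1440 CPM in turnover and 638 to 1280 CPM in autonomy, and the 12 dendritic cell markers to 220 to 303 CPM and 113 to 339 CPM, so that both overlapped between the groups. Of those, 1 of 5 B-cell and 1 of 2 dendritic cell markers tested fell, where 8.35% of all genes tested were called lower. The genes that fell, Cd79b (means of 68.14 CPM in turnover and 24.42 CPM in autonomy) and H2-Ab1 (17.95 and 4.59 CPM), were small parts of these sums. The median log2 change of the markers tested was −1.42 for B cells and −1.07 for dendritic cells. The B-cell markers Ms4a1, Pax5 and Cd22 and the epithelial Krt5 and Krt14 were at 0 in all libraries. Kidney tubule markers, looked at because grafts are often placed under the kidney capsule, summed to 0 to 1.57 CPM. The part of other cells in the results above was not tested.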

How the data were processed

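Counts per gene were deposited by the authors as 1 table of 18 libraries. The submitters' processing notes name HISAT2, featureCounts, FastQC and DESeq2, and the builds mm10 and GRCm38; tool versions and the strand setting of the counting are not stated there. Per the labels' protocols, RNA was taken with oligo-dT beads from cells sorted into lysis buffer, and libraries were made with a Nextera kit. The authors' deposited table of log2 fold changes and p-values was used for 1 comparison of calls. Of 22619 genes, 16301 had a read in DN3 libraries.

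DN3 counts were tested with edgeR 4.0.16 in R 4.3.3 (TMM scaling, filterByExpr with a minimum count of 10, quasi-likelihood test, Benjamini-Hochberg adjustment over 10766 genes, threshold 0.05), with and without RP1141B, after the code was tested on simulated data. CPM use TMM-scaled totals. Alternatives were limma 3.58.1 (voom), DESeq2 1.42.0, RLE factors, other filters, all 18 libraries, summed A and B libraries and each library left out. The members and lists were chosen with earlier results of these data known; lists were described by counts and medians, with no test. Named were the 12 largest rises and falls past the threshold with and without RP1141B, without overlap, at 50 CPM or more (receptor segments, predicted genes and pseudogenes left out), up to 4 genes per list and direction by smallest p, up to 8 per direction at 20 CPM or more whose call RP1141B changed, and a set of stage genes. Some genes that qualified are not reported here. Promoters are from RefSeq (GRCm38.p6), and symbols from the deposited tables (22566 identifiers). The sources give no animal numbers.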

Additional observations from a re-analysis of the deposited data

Results flagged for a closer look

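Within each group of 4 or 5 libraries, the CPM of genes named above was examined for a library far from the rest by Dixon's test. Rag1, Cd3e, Notch3, Cd28 and Cd44 were not among the genes examined. Of 292 groups of values 41 (14%) had such a library, where chance gives about 1 in 20. Genes share libraries, so these are not independent. Some genes were named because RP1141B changed their call and others after their values were seen, so this share cannot be set against that chance rate. RP1135 was the one in 17 and RP1141B in 14. Each value below is followed by the range of the other libraries of the same group, in CPM.

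RP1141B stood above the other turnover libraries for Cd4 at 128 (0.398 to 1.83), Cd8a at 364 (2.39 to 6.87), Cd8b1 at 581 (6.54 to 23.4) and Acp5 at 109 (31.9 to 37.1). It was also apart for Gimap6 at 308 (87.6 to 99), Cd2 at 82.2 (7 to 10.5), Ccnd3 at 412 (278 to 289) and Exo1 at 95.6 (79.3 to 80.4). Further genes in the same direction were Btg2 at 208 (84.5 to 101), Ltb at 196 (67.7 to 89.5), Tec at 73.1 (43.2 to 47.9) and Lef1 at 246 (189 to 197). RP1141B stood below the other turnover libraries for Trp53bp1 at 104 (130 to 134) and Rangap1 at 80.1 (114 to 121).

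RP1135 stood above the other autonomy libraries for Fbp1 at 166 (36.4 to 60.2), Atp8b4 at 51.6 (4.69 to 9.22), Nkg7 at 61.3 (2.99 to 9.87) and Cdkn1a at 36.4 (15.6 to 18). It was also apart for Ctps2 at 110 (77.6 to 87), Nfe2 at 15.1 (1.64 to 3.85), Tcf4 at 62.2 (35.2 to 39.5) and Lat2 at 5.13 (0.143 to 1.47). Further genes in the same direction were Vav3 at 17.8 (6.26 to 7.32), Tcrg-C1 at 893 (516 to 592), H2-K1 at 625 (205 to 251) and Aim2 at 14.5 (5.13 to 7.34). To these came Lyz2 at 10.8 (1.06 to 3.14) and Epcam at 77.1 (27 to 38.1). RP1135 stood below the other autonomy libraries for Ccnb1 at 216 (321 to 361), Trbc2 at 819 (988 to 1050) and H2-Q2 at 144 (243 to 265).

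RP1140B stood above the other turnover libraries for Myb at 717 (426 to 463), Tcf7 at 932 (572 to 598), Hells at 295 (257 to 263) and Tet2 at 48.5 (21.2 to 24.7). RP1140B stood below the other turnover libraries for Ptpn14 at 3.6 (7.8 to 8.21), Hmmr at 79.4 (94.9 to 95.7) and Tcf4 at 67.9 (83.2 to 85.3).

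RP1134 stood above the other autonomy libraries for Gmnn at 468 (371 to 396) and Mki67 at 877 (420 to 516).

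RP1133 stood above the other autonomy libraries for Igf2 at 10.6 (0.873 to 3.64).

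What sets these libraries apart was not tested.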

How the results depend on the processing

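The direction of the counts held throughout, with more genes lower than higher in autonomy under each setting except DESeq2 without RP1141B, but their size did not. Leaving out each library in turn gave 811 to 1784 genes past the threshold, 328 to 763 higher and 483 to 1021 lower; RP1140A, RP1137 and RP1138 moved the total by over 1.5 times (811, 953 and 1060). With the A and B libraries of a number summed 507 genes passed (170 higher, 337 lower), so that 33.5% of calls were higher against 43.9% in the main analysis. All 18 libraries in 1 fit gave 1006 (425 and 581), and DESeq2 gave 2462, 1133 of them higher. Settings added after the data were seen were RP1140A and RP1140B summed with RP1141B left out, which gave 463 (169 and 294), and DESeq2 without RP1141B, which gave 2306, 1159 higher and 1147 lower. RLE size factors, no filter on low counts, a filter of 1 CPM in 4 libraries and limma voom gave 1613, 1580, 1629 and 1997. The cause of these shifts was not tested. The summed fits also hold fewer libraries, and the part of that was not tested either.

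Of the 125 named genes past the threshold 114 kept the call without each library, all 125 kept their sign under every setting, and 28 lost the call with A and B summed. Many of these genes were named for a small p or for passing without RP1141B, so the counts kept do not describe all genes called. Sign changes were limited to genes that were not called. Cd4 was at log2 1.65 without RP1141B, 0.011 by limma voom, 1.84 with A and B summed and RP1141B left out and 1.68 by DESeq2 without it. In the same order Cd8a was at 3.37, 2.03, 3.53 and 3.39, and Cd8b1 at 2.63, 1.48, 2.66 and 2.65. Rag2 was at 0.083 without RP1141B, 0.0902 with RP1140A and RP1140B also summed and 0.0975 by DESeq2. With single libraries left out, the log2 change ran from −0.341 to 0.0257 for Il2ra, −0.434 to 0.083 for Rag2, −0.330 to 0.0484 for Il7r, −3.66 to 1.65 for Cd4, −1.20 to 3.37 for Cd8a and −1.19 to 2.63 for Cd8b1.

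No paired analysis was possible because the turnover and autonomy libraries of DN3 cells share no library number. The filter left out 5535 genes with a read in DN3 libraries, and these are not covered by the counts above. The fit with no filter called 62 of them and DESeq2 105, with 4205 given no adjusted p by DESeq2; for the low counts of the rest a difference was not detected at this depth.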
